A study of Mus musculus with 6 samples.

Results

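The EGF receptor family and its ligands were examined in mouse embryonic fibroblasts in which Zmat3, a target gene of p53 whose zinc finger protein binds RNA, was targeted with CRISPR guides. The family was taken as 9 genes by name, out of 27179 rows in the deposited table. They were the receptor genes Egfr, Erbb2 and Erbb3, the genes Ereg, Areg, Hbegf, Tgfa and Btc for ligands of Egfr, and Nrg1 for a ligand of Erbb3 and Erbb4. Of these, 8 were found by their names. Areg was not listed under its own name: its row carries Entrez gene number 11839, which RefSeq assigns to Areg, but is named Mcub, an older synonym. The name Mcub stands on 2 rows, and the other one (gene number 66815) belongs to the gene now called Mcub, a mitochondrial calcium uniporter subunit. Areg values below are those of gene number 11839.

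All 6 libraries came from fibroblasts that carried Cas9, the adenoviral oncogene E1A and the activated oncogene HrasG12V, and RNA was collected 10 days after guide selection. The 3 control libraries had the negative control guides EV, SPA and ACOCA (libraries 1, 2 and 3), and the 3 knockout libraries had the Zmat3 guides 52.6, 51.5 and 54.8. The libraries held between 53253055 and 90256118 reads assigned to genes. Zmat3 transcript in knockout libraries 1, 2 and 3 stood at 67.9%, 29.2% and 29.5% of the control mean. Control library 3 stood apart from the others, with a mean correlation of log2 values with the other libraries of 0.941, against 0.969 to 0.975 for the remaining 5, so results that rest on it are given with and without it. The labels do not say whether the cells of different guides shared a starting culture. All levels are normalised read counts, which are reads divided by 1 size factor per library, with mean ± SD and n = 3 libraries per group.

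The cell type label was set against marker genes. The mesenchymal genes Vim and Fn1 were abundant in every library, at 150396 to 195037 for Vim and 46319 to 87778 for Fn1. The fibroblast genes Pdgfra and Pdgfrb, for growth factor receptors, were at 424.8 and 1407 in control library 3 and at 1525 to 2384 and 3578 to 4650 in the others. Some other fibroblast genes were near 0, with Lum at 0 in all libraries, Thy1 at 5.42 or less and Col1a2 and Fap at 14.2 or less. The rest of the fibroblast list was higher in most libraries. Col3a1 ran from 198.2 to 3546, Col1a1 from 61.4 to 488.9, S100a4 from 133.3 to 372.9 and Dcn from 5.90 to 109.5. Epcam, an epithelial adhesion gene, was at 3574 in control library 3 and at 18992 or more in each of the others, while the keratin genes Krt5 and Krt14 were at 0 to 4.72. Of the other keratin genes, Krt8 was at 0.904 to 30.7 and Krt19 at 1198 to 4210. Krt18 was at 4463, 106.9 and 8675 in control, highest in control library 3, and at 91.3 to 452.4 in knockout. The remaining epithelial genes were far below Epcam, with Cldn4 at 6.93 to 40.1 and Grhl2 at 18.9 to 84.0. Cdh1 ran from 36.6 to 213.3 and Esrp1 from 26.0 to 478.5. The labelled fibroblasts therefore carried some markers of both lists, and neither list in full. In bulk RNA, fewer cells of a type and less RNA per cell cannot be told apart.

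ErbB receptors are tyrosine kinases of the cell surface that pair up when a ligand binds and pass the signal through adaptor proteins to Ras and phosphoinositide 3-kinase. Erbb2 has no known ligand of its own, and Erbb3 has little kinase activity and works in pairs with other members. The ligands are made as membrane-bound precursors and are released by proteases of the ADAM family. Cells transformed by Ras are known to make several Egfr ligands themselves.

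No family gene passed the test between knockout and control over all 6 libraries. Limma on log2(value + 1) with Benjamini-Hochberg adjustment called 0 of the 9 at a false discovery rate of 0.05, against a background of 0.0% of 14777 tested genes. All 9 had passed the filter on low values. EdgeR on the recovered reads also called 0 of the 9 (background 0.0%), and DESeq2 called 0 of the 9 (background 0.587% of 22151 genes). The 22151 genes given to DESeq2 were all those with any read, including genes below the filter on low values. The targeted gene Zmat3 was itself not called by limma (adjusted p = 0.371) or edgeR (adjusted p = 0.365). DESeq2 called Zmat3 (adjusted p = 0.0441), but not without control library 3 (adjusted p = 0.213). A gene that was not called is therefore not shown to be unchanged. At an unadjusted p under 0.05, limma and edgeR each picked out 1 family gene, Ereg, and DESeq2 picked out 2, Ereg and Areg. Over all tested genes, limma picked out 1948, edgeR 1987 and DESeq2 2365 at that level. The groups did not overlap for 2 of the 9 genes, Areg and Ereg, both higher in knockout, and 13.2% of all tested genes were separated in that direction (27.5% in either direction). Of the 9 log2 fold changes, 8 were positive, against 7624 of the 14777 over all tested genes. Their median was 0.43 (0.29 without control library 3), against a median of 0.01 over all tested genes. Without control library 3, those of Erbb2 (-0.014) and Tgfa (-0.054) turned negative.

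**Figure D1:**
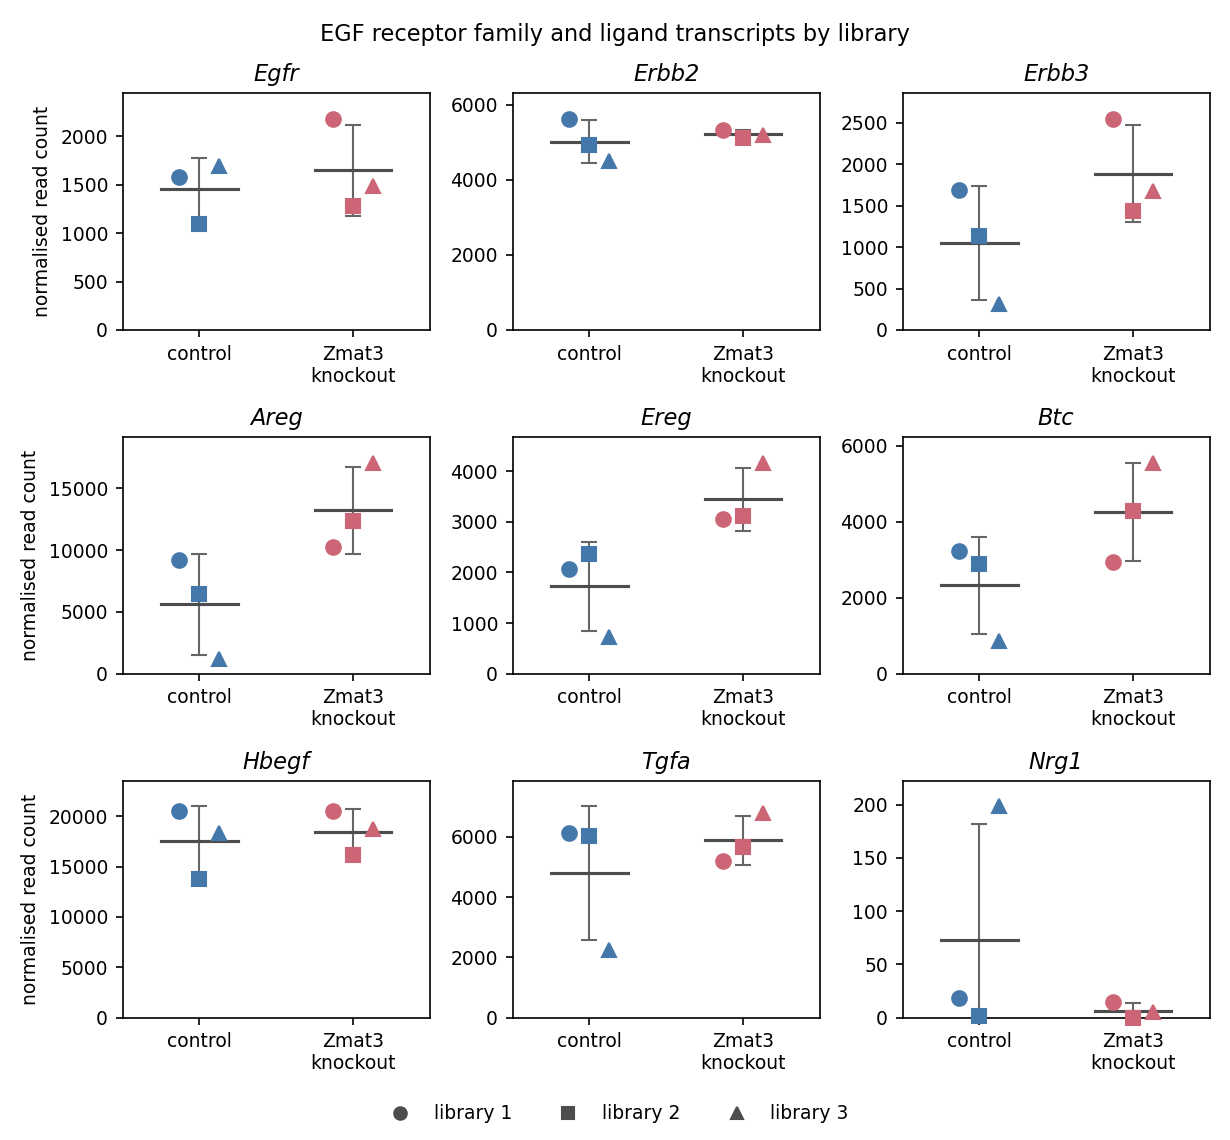
Normalised read counts of the 9 family genes in each of the 6 libraries (vertical axes, linear from 0, with a scale of their own in each panel). Points are libraries, with the shape giving the library number, horizontal lines are group means and error bars are 1 SD, cut at 0. Control library 3 is the lowest of the 6 libraries for Erbb2, Erbb3, Areg, Ereg, Btc and Tgfa and the highest for Nrg1, and the groups are separated for Areg and Ereg.

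Egfr, the receptor of most ligands in the family, was at 1578, 1096 and 1694 in the control group, libraries 1 to 3, and at 2181, 1280 and 1483 in the knockout group. The groups overlapped, with means of 1456 ± 317 and 1648 ± 473 (SD, n = 3). Limma gave a log2 fold change of 0.17 (SE 0.26, adjusted p = 0.723). It was 0.29 without control library 3, and its sign turned to -0.055 without knockout library 1 and to -0.026 without control library 2.

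Erbb2, the coreceptor, varied least across libraries of the 9 genes. Its values were 5630, 4924 and 4515 in control and 5337, 5116 and 5195 in knockout. The knockout libraries lay within the control range, at 5216 ± 112 against 5023 ± 564 (SD, n = 3). The log2 difference by limma was 0.06 (SE 0.12, adjusted p = 0.782), and -0.014 without control library 3. Exons of Erbb2 overlap those of Mien1 on the opposite strand, and as no strand setting of the counting is known, their reads could not be told apart.

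Erbb3, the receptor of neuregulins, was at 1692, 1139 and 317.4 in the 3 control libraries, in order, and at 2548, 1437 and 1675 in knockout. Control library 3 held 22.4% of the mean of the other 2 control libraries, and the groups overlapped through control library 1. Limma put the log2 fold change at 1.11 (SE 0.60, adjusted p = 0.387), and 0.40 without control library 3. DESeq2 called Erbb3 higher only when control library 1 was left out (log2 fold change 1.37, adjusted p = 0.0434). The background of genes called higher there was 4.68% of 22151. Erbb3 was the only family gene called in that comparison.

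Erbb4, the fourth receptor, was low throughout. It stood at 121.4, 35.1 and 85.0 in control and at 283.8, 70.5 and 72.8 in knockout. Knockout library 1 was the highest of the 6, as it was for Egfr and Erbb3. By limma the log2 fold change was 0.66 (SE 0.70, adjusted p = 0.597), but 0.0032 without knockout library 1 and 0.16 without control library 2. It was 1.04 without control library 1 and 1.00 without knockout library 2.

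Areg, amphiregulin, showed the largest positive log2 fold change of the family. Its values were 9216, 6461 and 1168 in the control group, in order of library, and 10211, 12368 and 17068 in the knockout group. Every knockout library was above every control library, but knockout library 1 exceeded control library 1 by little. The means were 5615 ± 4090 and 13216 ± 3506 (SD, n = 3), a ratio of 2.35. Limma gave a log2 fold change of 1.65 (SE 0.73, adjusted p = 0.371), and an exact two-sided permutation test gave p = 0.1, the smallest that 3 libraries against 3 allow. Without control library 3 the ratio was 1.69 and the limma log2 difference 0.74 (SE 0.24, adjusted p = 0.277), and DESeq2 then called Areg higher (log2 fold change 0.75, SE 0.24, adjusted p = 0.0409).

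Ereg, epiregulin, was at 2076, 2371 and 731.6 in control and at 3050, 3111 and 4165 in knockout. Its groups did not overlap either. The means were 1726 ± 874 and 3442 ± 627 (SD, n = 3), a ratio of 1.99. The log2 difference by limma was 1.15 (SE 0.44, adjusted p = 0.371), and the exact two-sided permutation p was again 0.1. Without control library 3 it was 0.62 (SE 0.16, adjusted p = 0.24), and DESeq2 called Ereg higher (log2 fold change 0.62, SE 0.18, adjusted p = 0.0199). Areg and Ereg were the 2 of 9 family genes that DESeq2 called higher in that comparison, in which it called 1.53% of 22151 genes higher. That share is over an unlike set, since it includes genes below the filter on low values, which all 9 family genes had passed. An exon of Gm19610 overlaps Ereg on the other strand.

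Btc, betacellulin, which binds both Egfr and Erbb4, was at 3237, 2877 and 857.8 in control and at 2944, 4287 and 5536 in knockout. The groups overlapped because knockout library 1 lay below control library 1. The means were 2324 ± 1282 and 4256 ± 1296 (SD, n = 3), and limma put the log2 difference at 1.04 (SE 0.52, adjusted p = 0.376). Without control library 3 the log2 fold change was 0.43 (SE 0.25, adjusted p = 0.441), and DESeq2 gave an adjusted p of 0.285.

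Hbegf, the heparin-binding ligand, stood at 20519, 13761 and 18317 in control and at 20530, 16123 and 18775 in knockout. Control library 3 lay inside the range of the other libraries here, unlike for the 4 other Egfr ligands. The means were 17532 ± 3446 and 18476 ± 2218 (SD, n = 3), and limma put the log2 difference at 0.09 (SE 0.18, adjusted p = 0.79), and -0.077 without control library 2.

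Tgfa, transforming growth factor alpha, was at 6122, 6024 and 2240 in control and at 5207, 5665 and 6785 in knockout. Control library 3 was far below the other 5 libraries, and control libraries 1 and 2 lay above 2 of the 3 knockout libraries. The limma log2 fold change was 0.43 (SE 0.39, adjusted p = 0.55) and turned to -0.054 without control library 3. Exons of Gm43917 overlap Tgfa on the other strand.

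**Figure D2:**
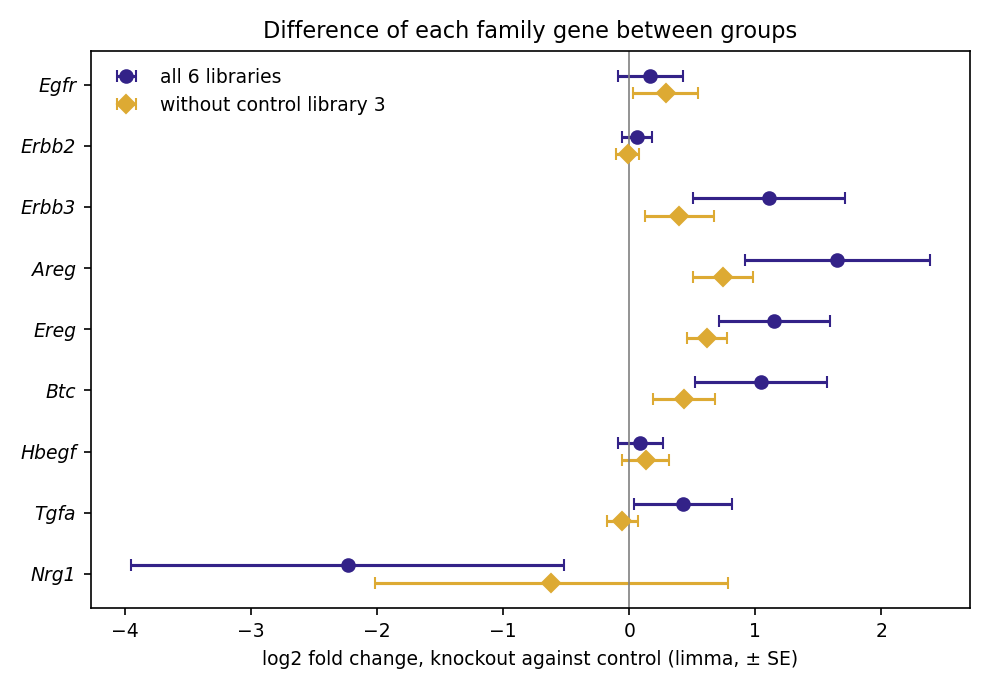
Log2 fold change of knockout against control for the 9 family genes by limma (horizontal axis; bars are ± 1 SE), over all 6 libraries (circles) and without control library 3 (diamonds). Without that library the values of Areg, Ereg, Btc and Erbb3 lie nearer to 0 and stay positive, from 0.40 to 0.74, and that of Tgfa is -0.054.

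Nrg1, a neuregulin, was highest in control library 3, where 4 of the 5 Egfr ligand genes were lowest. It was at 18.3, 1.46 and 198.2 in the 3 control libraries, in order, and at 14.5, 0 and 4.85 in knockout. Control library 3 stood far above the other 5, which were all near 0, and the groups overlapped. By limma the log2 fold change was -2.24 (SE 1.72, adjusted p = 0.486), and -0.62 without control library 3. The pseudocount of 1 bears on values this low, and with 8 in its place the log2 fold change was -1.49.

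The ligand genes that were not among the 9 were low. Nrg2 was at 248.4, 207.9 and 99.1 in control and at 207.8, 288.8 and 205.0 in knockout. Egf itself was at 69.6 to 134.5, Nrg4 at 20.6 to 49.6 and Epgn, epigen, at 5.42 to 26.0 over all libraries. Nrg3 was at 3.54 in control library 3 and at 0 in the other 5, where a count of 0 allows up to 3 reads (counting error only). The groups overlapped for each of these 5 genes and for Erbb4. Nrg3 did not pass the filter on low values and has no adjusted p from limma, edgeR or DESeq2. None of the others was called by any of these tools.

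Epgn, Ereg, Areg and Btc lie in this order in 1 stretch of chromosome 5 of GRCm38, from position 91027517 to 91402994, a span of 375.5 kb. Ereg runs from 91074617 to 91093649 and Areg from 91139599 to 91148432 on the plus strand, and Btc from 91357261 to 91402994 on the minus strand. The cluster was not uniform in level. Epgn, at one end, had a log2 difference of -0.96 by limma (SE 0.53, adjusted p = 0.39), opposite in sign to its 3 neighbours. Epgn had only 6 to 32 reads per library and overlapping groups, and with a pseudocount of 8 its log2 difference was -0.64. Whether its difference departs from those of its neighbours was not tested. Of the protein-coding genes within 200 kb outside the cluster, Mthfd2l, an enzyme gene of folate metabolism, had -0.08 and Parm1 had 0.31, while Cxcl2 was at 4.62 or less and not tested. Cxcl1, a chemokine gene, was at 135.7, 164.7 and 64.9 in control and at 168.1, 315.3 and 321.4 in knockout, for which limma gave a log2 difference of 1.18 (adjusted p = 0.371; 0.78 without control library 3). The other family genes lie on other chromosomes.

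The sequences before the starts of Areg, Btc and Tgfa are shown because these are ligand genes with their lowest level in control library 3, and because Areg differed most. RefSeq's table for GRCm38.p6 held a window for 5 of the 9 genes. Each sequence is the 250 bases before the start, read 5′ to 3′ along the gene: chr5:91139349-91139598 on the plus strand for Areg, chr5:91402995-91403244 on the minus strand for Btc and chr6:86194972-86195221 on the plus strand for Tgfa, whose window ends at a start inside the annotated gene (86195038 to 86275744). Capitals mark matches to 4 motifs searched on both strands. An AP-1 site was searched as TGACTCA, without mismatches. The cAMP response element was searched in its full palindromic form as TGACGTCA. For the TATA box the letters searched were TATAAA, and no flanking bases were required. The GC box, the core of sites for Sp factors, was searched as GGGCGG.
Areg: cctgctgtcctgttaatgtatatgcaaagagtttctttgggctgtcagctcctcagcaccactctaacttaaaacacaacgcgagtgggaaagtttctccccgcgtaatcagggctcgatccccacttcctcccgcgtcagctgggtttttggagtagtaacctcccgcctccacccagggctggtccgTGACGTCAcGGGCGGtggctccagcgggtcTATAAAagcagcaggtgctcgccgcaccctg
Btc: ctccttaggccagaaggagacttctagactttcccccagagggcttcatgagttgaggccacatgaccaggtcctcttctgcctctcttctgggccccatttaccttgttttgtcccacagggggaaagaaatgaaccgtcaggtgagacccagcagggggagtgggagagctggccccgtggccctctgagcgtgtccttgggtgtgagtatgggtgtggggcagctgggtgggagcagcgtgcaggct
Tgfa: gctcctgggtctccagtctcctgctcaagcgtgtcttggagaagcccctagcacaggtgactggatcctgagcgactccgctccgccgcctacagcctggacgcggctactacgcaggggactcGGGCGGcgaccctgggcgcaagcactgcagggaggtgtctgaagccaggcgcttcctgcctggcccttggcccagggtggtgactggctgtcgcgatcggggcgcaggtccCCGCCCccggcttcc

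The Areg window held TGACGTCA with its first base 61 bases before the start, GGGCGG at 52 and TATAAA at 31, and none of them overlap. Among 32536 windows of this length, 1.56% held TGACGTCA, 12.3% TATAAA, 33.0% GGGCGG and 4.45% TGACTCA. The Tgfa window held GGGCGG at 2 places, 1 of them on the other strand, and no other motif of the 4, and the Btc window held none of them. The Egfr window held GGGCGG once, and the Erbb2 window held no match. GC content was 57.2% for Areg, 59.6% for Btc and 69.2% for Tgfa, against a median of 52.4% over all windows. These matches describe the letters of the windows and were not tested for a link to the levels.

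Levels of different genes were compared per kb of the longest annotated transcript (GENCODE M21). In control, the order of mean normalised count per kb was Hbegf (6067 ± 1193), Areg (4621 ± 3366), Tgfa (1059 ± 489), Erbb2 (1002 ± 113), Btc (577.1 ± 318.4), Ereg (418.1 ± 211.7), Erbb3 (174.4 ± 115.0), Egfr (142.7 ± 31.1) and Nrg1 (13.4 ± 20.1), each as SD with n = 3. The control ranges of neighbours in this order overlapped except between Erbb2 and Btc and between Egfr and Nrg1. In knockout, Areg came first at 10877 ± 2886 per kb and Hbegf second at 6393 ± 768 (SD, n = 3), with no overlap between the 2, by the longest transcript. The order depended on the length used: with the median transcript length Egfr moved from rank 8 to rank 4 in control. Hbegf was first in control with each of the 3 lengths tried. In knockout the order of Areg and Hbegf depended on the length: their ranges overlapped with the median transcript length, and with the coding length Hbegf came first at 29609 ± 3555 per kb and Areg second at 17763 ± 4713 (SD, n = 3).

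**Figure D3:**
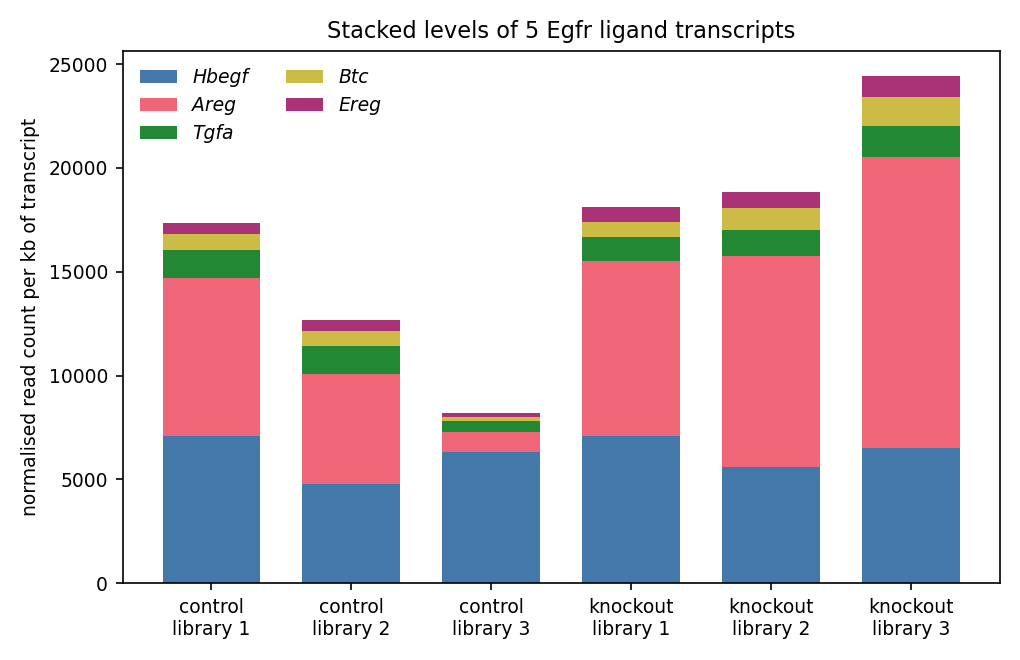
Normalised read count per kb of transcript (vertical axis, linear from 0) of 5 Egfr ligand genes, stacked for each of the 6 libraries. Hbegf runs from 4762 to 7104, whereas the Areg part runs from 961.5 in control library 3 to 14048 in knockout library 3.

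Hbegf and Areg together made up most of the Egfr ligand transcript. Summed over the 7 genes for Egfr ligands (the 5 above with Egf and Epgn), the level per kb was 17371, 12727 and 8227 in the 3 control libraries, in order, and 18156, 18852 and 24458 in knockout. The share of Areg in this sum was 43.7%, 41.8% and 11.7% in control and 46.3%, 54.0% and 57.4% in knockout. The share of Hbegf was 40.9%, 37.4% and 77.0% in control and 39.1%, 29.6% and 26.6% in knockout. The groups did not overlap in the share of Areg, but its lowest value in knockout, in library 1, was close to the highest in control. In the share of Hbegf they overlapped, since knockout library 1 lay above control library 2. Per kb of coding length the share of Areg was lower, at 18.1%, 16.2% and 4.04% in control and 19.8%, 24.1% and 26.6% in knockout, and below that of Hbegf in every library. The groups did not overlap in the share of Areg with that length either.

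Within the knockout group, library 1, which retained most Zmat3 transcript, was the lowest of the 3 for Areg, Ereg, Btc and Tgfa and the highest for Egfr, Erbb2, Erbb3, Hbegf and Nrg1. With 3 libraries this order was not tested. Control library 3 was the lowest of all 6 libraries for 6 of the 9 family genes. It held 14.9% of the mean of the other 2 control libraries for Areg, 28.1% for Btc, 32.9% for Ereg and 36.9% for Tgfa, but 106.9% for Hbegf and 126.7% for Egfr.

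Marker genes of other cell types also moved with control library 3. The summed level of 10 epithelial genes was 33034, 20520 and 14048 in the 3 control libraries, in order, and 24779 to 29038 in knockout, with Epcam the most abundant of them in 5 of the 6 libraries. The summed level of 7 leukocyte genes ran from 828.3 to 6055 in control and from 7172 to 9246 in knockout. It rested almost wholly on Cd68, a lysosomal protein gene, and the defining leukocyte gene Ptprc was at 8.26 or less. The sum of 6 neural genes ran from 1870 to 7487 in control and from 7263 to 8052 in knockout, mostly Map2, with Sox10 at 2.43 or less. The sum of 5 endothelial genes ran from 193.5 to 648.3 in control and from 481.6 to 751.9 in knockout. Control library 3 held the lowest sum of each of these 4 lists. Its sum of the 12 fibroblast genes, 243857, was the highest of the control group, against 232512 to 261420 in knockout, but rested mostly on Vim, at 195037. For 6 of the 12 fibroblast genes, Col1a1, Col3a1, Pdgfra, Pdgfrb, Fn1 and Dcn, control library 3 was the lowest of all 6 libraries. Col3a1, a collagen gene, was at 198.2 there and at 2407 to 3546 in the others. Their part in the family's values was not tested.

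For each family gene, the gene outside the family with the most similar profile was the one with the smallest mean absolute difference in log2 level over the 6 libraries, after centring, among 13017 genes with a mean of at least 50. Being the best of so many, a close match is a description only. Spp1, the secreted protein osteopontin, lay nearest to Areg, at a mean difference of 0.11, with 95638, 61046 and 13185 in control and 118049, 130219 and 213924 in knockout. Map4k1, a kinase gene, lay nearest to Ereg (0.09), Sema3b to Btc (0.08), Nos3 to Erbb3 (0.08) and Fsd1 to Tgfa (0.08). Fto lay nearest to Erbb2 (0.02), Tspan7 to Hbegf (0.04) and Zfp692 to Egfr (0.08). Irx2, nearest to Nrg1 at 0.59, was at 148.4, 7.32 and 1540 in the 3 control libraries, in order, and at 86.8, 21.9 and 53.4 in knockout. Within the family, Egfr and Hbegf (0.15), Erbb2 and Hbegf (0.16) and Ereg and Btc (0.18) lay closest, and Areg lay nearer to Btc (0.36) than to Ereg (0.41).

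The rest of the pathway was described through 4 lists. Of 64 genes in them, 61 were tested, and limma, edgeR and DESeq2 each called 0. At an unadjusted p under 0.05 limma picked out 3, edgeR 2 and DESeq2 2 of the 61, against 1948, 1987 and 2365 of all 14777 tested genes. The groups did not overlap for 5 higher and 4 lower genes of the 61, against 13.2% of all tested genes higher and 27.5% in either direction. The 5 ligand genes of Egfr had a median log2 fold change of 1.04, and 0.43 without control library 3.

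Genes for ligand shedding and maturation, which include the ADAM proteases and the rhomboid-like trafficking factors, had a median of 0.14 over 13 tested genes, 8 positive and 5 negative, and of -0.0025 without control library 3. Adam8, a membrane protease, was at 1447, 1576 and 341.0 in control and at 2579, 1964 and 2920 in knockout. Its groups did not overlap, and control library 3 was again lowest. Limma gave a log2 fold change of 1.41 (SE 0.58, adjusted p = 0.371). Without control library 3 it was 0.70, and DESeq2 then called Adam8 higher (adjusted p = 0.0116). Of the 61 pathway genes only Adam8 was called in that comparison, where 1.53% of 22151 genes were called higher, with genes below the filter included. Adam17, the main protease of Areg, Ereg, Hbegf and Tgfa precursors, was at 10508, 11236 and 8183 in control and at 10181, 10814 and 12001 in knockout, with overlap. Adam10, which sheds Btc, was at 12914, 14143 and 11904 in control and at 14182, 14829 and 15071 in knockout, and limma gave it a log2 difference of 0.18 (adjusted p = 0.408), and Adam9 had 0.16 (adjusted p = 0.509). The groups did not overlap for either of them, both higher in knockout, but the margin was small. For Adam9 the lowest knockout value was 14781 and the highest control value 14777. The log2 differences were 0.12 for Adam10 and 0.035 for Adam9 without control library 3.

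Adaptors and effectors of the receptors had a median of 0.06 over 22 tested genes, 12 positive and 10 negative. The groups did not overlap for Crkl, Ptpn11 and Nck1. Crkl, an adaptor, was at 5478, 6076 and 6812 in control and at 4690, 4672 and 4800 in knockout, a log2 difference of -0.37 by limma (SE 0.12, adjusted p = 0.371). Ptpn11, the phosphatase Shp2 that promotes Ras signalling, had -0.33 (adjusted p = 0.371; -0.20 without control library 3), and Nck1, an adaptor to the cytoskeleton, had 0.25 (adjusted p = 0.371).

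Genes for receptor downregulation, such as ubiquitin ligases, sorting factors and feedback inhibitors, had a median of -0.0039 over 21 tested genes, 10 positive and 11 negative. Spry4, a feedback inhibitor of receptor signalling, was at 3781, 3272 and 1412 in control and at 3991, 3949 and 4122 in knockout. Its groups did not overlap, and limma gave a log2 difference of 0.63 (SE 0.36, adjusted p = 0.394) and 0.19 without control library 3. Hgs, which sorts receptors to lysosomes, had -0.26 (adjusted p = 0.373), and Ptpn1, a phosphatase that acts on receptors, had -0.22 (adjusted p = 0.42). They had -0.15 and -0.094 without control library 3. Without control library 3 the medians of the adaptor and downregulation lists were -0.0035 and 0.02.

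**Figure D4:**
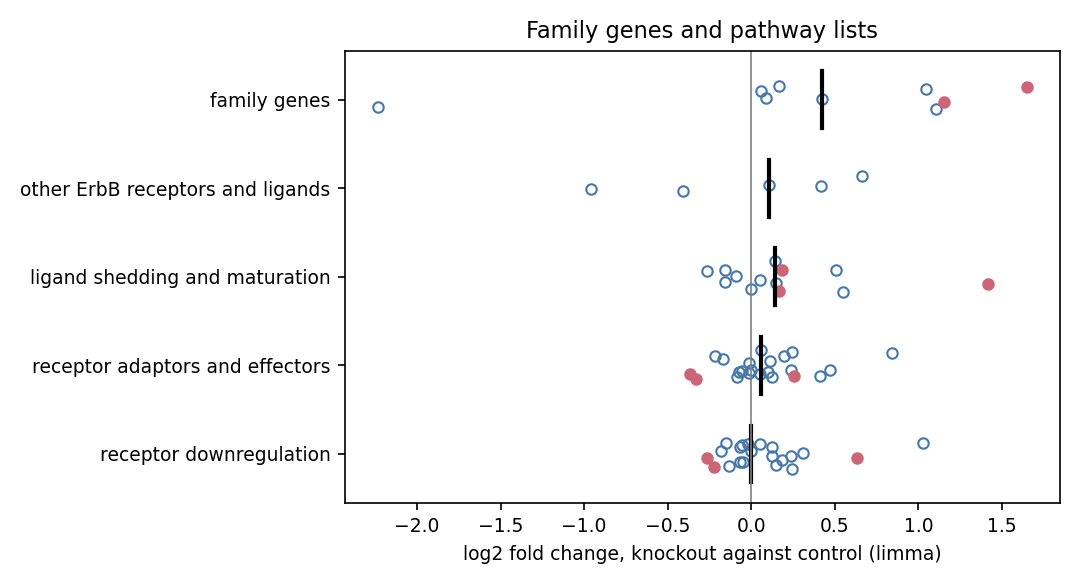
Log2 fold change of knockout against control by limma (horizontal axis) for each tested gene of the family and of 4 pathway lists. Filled points are genes whose groups do not overlap, open points are the others and black bars are list medians; vertical spread within a list is only for legibility. The family genes run from -2.24 to 1.65, and the medians of the 4 pathway lists lie between -0.0039 and 0.14.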

How the data were processed

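RNA of 6 mouse embryonic fibroblast libraries was extracted with the RNeasy Mini kit and sequenced on Illumina libraries, per the labels' protocols. STAR, DESeq2 and the genome build mm10 are named in the submitters' processing notes; for their versions, the counting tool, its strand setting and the annotation, the sources used here give nothing. The deposited values are a signal per gene, which are reads scaled by the size factor of the library. Dividing by the value of 1 read (0.732 to 1.21) gave whole reads for 100% of values, within 0.001.

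Values were tested as log2(value + 1) with limma 3.58.1 (trended, robust variances, two-sided, R 4.3.3) over the 3 control and 3 knockout libraries, after edgeR's expression filter with a minimum of 10 left 14777 genes. P-values were adjusted over all of these by Benjamini-Hochberg, with a threshold of 0.05. DESeq2 1.42.0 and edgeR 4.0.16 on recovered reads, other pseudocounts, filters and scalings, a replicate block and leaving out each library were alternatives, and the lengths tried for knockout levels and ligand shares were added after seeing the data. The tests were tried on simulated data in which no library stood apart, so that trial does not cover data with a library like control library 3. Single genes were also given an exact permutation test. P-values measure the spread between libraries, which each had a guide of their own, and this spread may be partly technical.

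The family genes and gene lists were chosen with earlier results of these data known. Pathway genes named were up to 4 per list with the largest changes among those of mean value at least 50 whose groups did not overlap; Adam17 was named for its role. Genes were located in RefSeq GRCm38.p6, and 93.0% of rows matched it by gene number. A further 6263 rows have no gene name in the file.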

Additional observations from a re-analysis of the deposited data

How the results depend on the processing

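Limma called 0 family genes and 0 pathway genes under every alternative run with it. Over all genes, DESeq2 called 130 (226 on the filtered genes, an alternative chosen after seeing the data) and limma without single libraries called 0 to 5, the 5 without control library 3. DESeq2 without control library 3 called 701 of 22151 genes (1.53% higher), 2 of the 9 family genes (Ereg and Areg) and 1 of the 61 pathway genes (Adam8). Over all single libraries left out, also chosen after seeing the data, DESeq2 called 25 genes (without knockout library 2) to 2142 (without control library 1), 0 to 2 family genes and 0 to 4 pathway genes. The 4 of 61 pathway genes were called without control library 1. In that comparison 2142 of 22151 genes were called, 4.68% of all genes higher, so the 4 are no result about the pathway.

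The log2 fold changes of Erbb3, Ereg, Areg, Btc and Nrg1 kept their direction in 17 of 17 alternatives, at 0.40 to 1.60, 0.62 to 1.47, 0.74 to 2.23, 0.43 to 1.39 and -3.79 to -0.60. These alternatives are not separate checks. Limma without robust variances, without the filter and with the replicate block gives the same log2 fold change by construction. Most of the others reuse all or most of the same libraries. Leaving out 1 library gave ranges that crossed 0 for Egfr (-0.055, and -0.026 without control library 2, to 0.33), Erbb2 (-0.014 to 0.15), Hbegf (-0.077 to 0.21), Tgfa (-0.054 to 0.67) and Egf (-0.13 to 0.34). DESeq2 without control library 3 gave -0.023 for Erbb2 and -0.053 for Tgfa. The causes were not tested.

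With the replicate block limma called 0 of all genes, 0 family genes and 0 pathway genes. The numbers were not taken as pairs: correlations of deviations for equal numbers were 0.264, 0.198 and -0.0172, and control library 2 correlated best with knockout library 3 (0.215). Depth limits Nrg1, which had 0 to 168 reads per library, while each of the other family genes had at least 269.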
